A study of Mus musculus with 36 samples.

Results

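A set of 9 genes tied to glucocorticoid signalling was followed through the day in mouse hypothalamic tissue enriched for the suprachiasmatic nucleus (SCN), the seat of the central circadian clock. They were the 2 receptors Nr3c1 and Nr3c2 and the induced genes Tsc22d3, Sgk1, Fkbp5, Klf9, Klf15, Zbtb16 and Errfi1. Each was taken by its symbol as the row identifier in both deposited tables, and all 9 of the 24883 shared rows were found and passed the filter on low values. The 9 were chosen by name with earlier results on levels by time of day in these data in view, among them the daily course of Klf15, so their course through the day is a description, and the counts of rows past a threshold for time of day serve only as a scale. Tests are given for diet and for the difference in rhythm between diets.

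Glucocorticoids, corticosterone in mice, are released by the adrenal gland in a daily rhythm that climbs toward the active phase, which in mice is the night. Inside cells they bind the glucocorticoid receptor (encoded by Nr3c1) and, with higher affinity, the mineralocorticoid receptor (Nr3c2), which then bind response elements in DNA and change transcription. In the adult brain most glia, endothelial cells and neurons carry the glucocorticoid receptor, while SCN neurons are known for having little of it.

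The mice were adult C57BL/6J animals given normal chow (NC) or a high-fat diet (HFD) for 10 weeks. Tissue was taken at 6 times of day, 0, 4, 8, 12, 16 and 20, which the labels call time points and the file headers zeitgeber time (ZT, hours counted from lights on by convention). Each of the 12 groups had 3 libraries, 36 in all. The sample descriptions also carry the words brain homogenate. The lighting schedule and the diets' composition are not given in the sources used here. Whether replicates are separate animals is not stated, so p-values measure only the spread between these samples. Each diet stands in its own table, so table and diet cannot be told apart. In bulk tissue, fewer cells of a type and less RNA per cell cannot be told apart.

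Levels are FPKM (fragments scaled by transcript length and library size), rescaled so that each library summed to 1000000. Before rescaling, the libraries summed to between 302899 and 432336, and read depth cannot be read from these values. All 11 SCN markers had values above 0 in every library, such as Avp at 234 to 4301 and Six6 at 1.22 to 10.6. By contrast, 5 libraries stood apart by markers of other tissue. The summed level of 10 liver genes was over 10 times the median of 71.8 in NC ZT 0 replicate 1 (5335), NC ZT 4 replicate 1 (1195) and HFD ZT 0 replicate 3 (923). The summed level of 9 striatal genes was over 5 times the median of 305 in NC ZT 12 replicate 3 (1818) and HFD ZT 16 replicate 3 (2398).

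Sequence upstream of the genes is shown first, because 3 of them hold the full glucocorticoid response element or an E-box close to a transcript start. RefSeq windows on GRCm38.p6, 250 bases before each annotated start, matched 7 of the 9 genes with 15 windows. Zbtb16 and Nr3c1 had no window among the 32851 searched, so their upstream sequence was not examined. Percentages of all windows refer to these searched windows and not to every annotated start. Both strands were searched for the glucocorticoid response element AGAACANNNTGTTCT, for its single hexamer AGAACA, which lies within the full element, and for the E-box CACGTG, bound by CLOCK and BMAL1. The full element was in 3 of all 32851 windows (0.00913%), and 1 of those 3 was a window of Sgk1, on the plus strand at chr10:21993640-21993889. This window lies inside the gene model, ahead of one of its internal starts, and overlaps 0 exons. The element begins 189 bases before that start and an E-box begins 246 bases before it. The E-box was in 6.02% of all windows, with 2 or more copies in 0.429%. The window of Klf15 (plus strand, chr6:90462326-90462575) held 2, beginning 228 and 172 bases before the start. The window of Fkbp5 (minus strand, chr17:28486150-28486399) held 1, beginning 169 bases before it. In the sequences, capitals mark the full element and the E-boxes.
Sgk1 upstream window: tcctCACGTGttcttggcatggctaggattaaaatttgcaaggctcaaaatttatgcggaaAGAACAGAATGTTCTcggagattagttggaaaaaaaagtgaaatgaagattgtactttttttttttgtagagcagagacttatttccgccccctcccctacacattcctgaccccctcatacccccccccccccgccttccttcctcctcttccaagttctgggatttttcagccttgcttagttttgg
Klf15 upstream window: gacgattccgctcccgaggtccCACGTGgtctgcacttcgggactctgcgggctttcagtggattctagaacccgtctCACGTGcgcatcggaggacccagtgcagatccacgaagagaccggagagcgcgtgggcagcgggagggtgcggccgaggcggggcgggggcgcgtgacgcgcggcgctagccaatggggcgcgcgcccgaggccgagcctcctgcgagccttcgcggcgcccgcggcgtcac
Fkbp5 upstream window: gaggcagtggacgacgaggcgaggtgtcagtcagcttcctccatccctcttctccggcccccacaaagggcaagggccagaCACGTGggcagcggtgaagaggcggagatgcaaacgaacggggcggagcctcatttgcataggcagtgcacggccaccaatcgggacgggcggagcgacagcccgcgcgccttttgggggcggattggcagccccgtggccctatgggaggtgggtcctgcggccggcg
The single hexamer was in a window of 2 of the 7 genes, Sgk1 and Tsc22d3, against 16.1% of all windows, and in Tsc22d3 it begins 185 bases before the start. A match is a description of the letters in these windows, and genes with several starts had more windows to match in.

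Of the 9 genes, 6 were higher in the evening and early night than in the morning, and with both diets fitted together their peaks fell within ZT 12 to 16. In a 24 h cosine fitted to all 36 libraries with diet as a term, the peak-to-trough fold was 3.06 for Sgk1, 1.81 for Zbtb16, 1.66 for Tsc22d3, 1.65 for Klf9, 1.40 for Klf15 and 1.30 for Fkbp5. Folds and differences are on the log2(value + 1) scale, which understates the change of low genes such as Zbtb16. The other 3 genes had smaller ranges, 1.26-fold for Nr3c2, 1.11-fold for Nr3c1 and 1.05-fold for Errfi1. The median fitted log2 range was 0.485 over the 9 genes and 0.137 over all 15173 rows tested. Averaged over all libraries, level ran from 133 ± 29.4 for Tsc22d3 (SD, n = 36) to 6.13 ± 2.78 for Zbtb16.

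**Figure D1:**
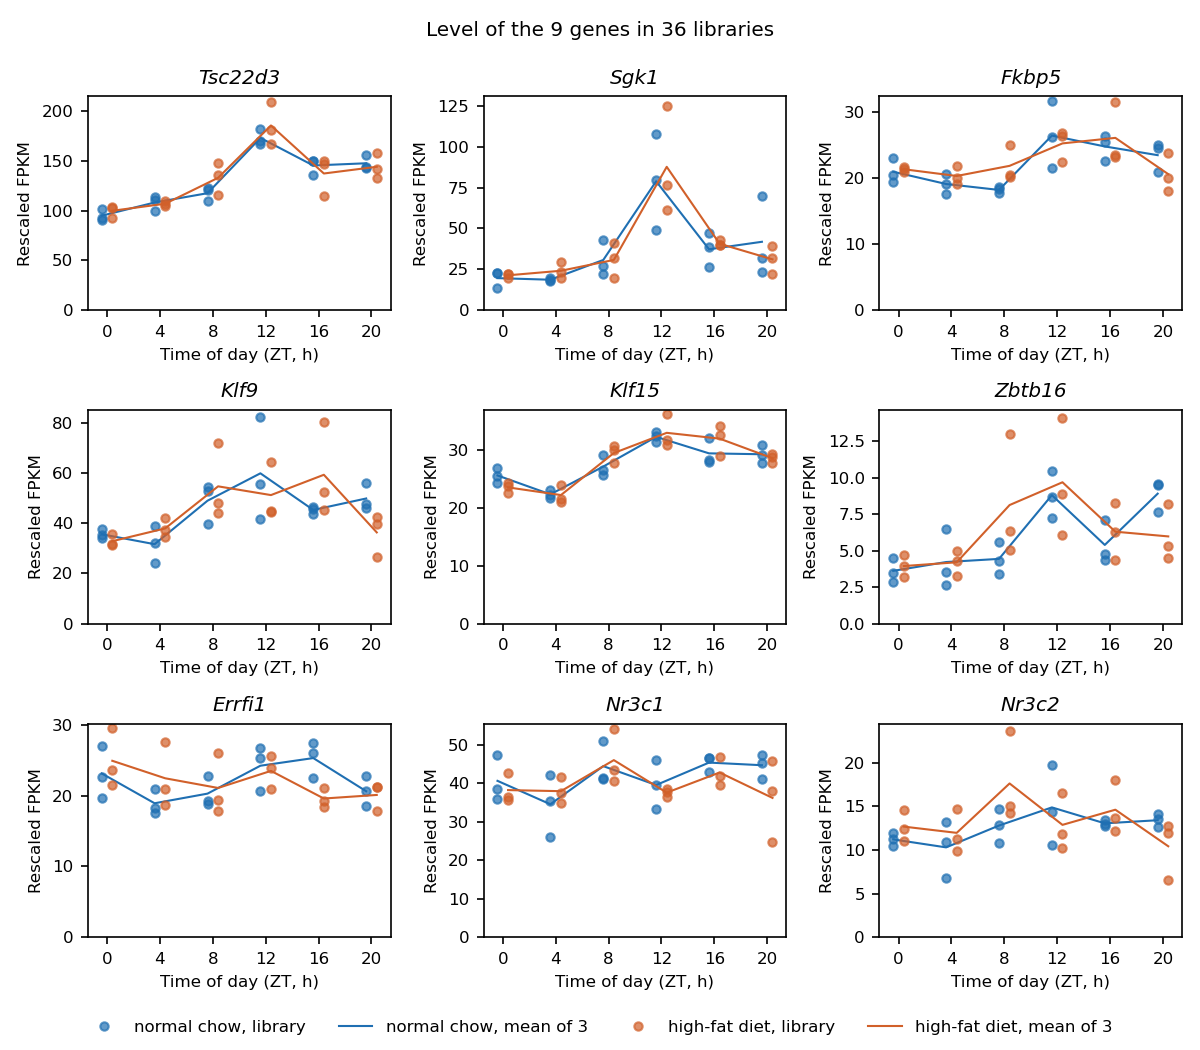
Rescaled FPKM (y axis, from 0) of the 9 genes against time of day (x axis, ZT in hours), with 1 point per library and a line through the mean of the 3 libraries of each group, blue for normal chow and orange for high-fat diet. Tsc22d3 and Sgk1 are highest at ZT 12 in both diets, whereas Nr3c1 and Errfi1 show no common course.

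Both receptor genes were measured well above the filter, and neither passed an adjusted p under 0.05 for the 24 h cosine in limma. Nr3c1, the glucocorticoid receptor gene, averaged 40.7 ± 6.07 over the 36 libraries. Under NC its libraries ran from 26.0 to 51.0, with group means between 34.6 ± 8.10 at ZT 4 (SD, n = 3) and 45.4 ± 2.08 at ZT 16. Under HFD they ran from 24.8 to 54.1, with group means between 36.2 ± 10.6 at ZT 20 and 46.1 ± 7.13 at ZT 8. Ordered by the mean of 6 libraries, the time points of Nr3c1 were ZT 8, 16, 20, 0, 12 and 4, and no neighbours in that order differed by more than the larger of their SDs. Such an order keeps neighbouring means close, so it cannot show whether there is a course. By the clock the means were 36.3 ± 5.86 at ZT 4 (SD, n = 6), 45.3 ± 5.79 at ZT 8, 38.6 ± 4.22 at ZT 12 and 44.1 ± 3.03 at ZT 16. The 3 libraries at ZT 12 lay among those of other times, with 14 of 15 others under NC and 11 of 15 under HFD at or above the lowest of them.

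Nr3c2, the mineralocorticoid receptor gene (chr8:76899442-77245012, GRCm38), was lower, at 12.99 ± 3.16. Its NC libraries read 11.2, 10.5 and 11.9 at ZT 0, 13.2, 6.75 and 10.9 at ZT 4, 10.8, 12.9 and 14.7 at ZT 8, 10.6, 14.3 and 19.8 at ZT 12, 13.02, 13.4 and 12.7 at ZT 16, and 13.5, 12.6 and 14.1 at ZT 20. Its HFD libraries read 12.4, 11.1 and 14.6 at ZT 0, 14.7, 11.3 and 9.92 at ZT 4, 14.2, 23.7 and 15.1 at ZT 8, 10.2, 11.8 and 16.6 at ZT 12, 12.2, 13.6 and 18.1 at ZT 16, and 12.0, 12.8 and 6.52 at ZT 20. Single libraries set the extremes, replicate 2 of NC ZT 4 and replicate 3 of HFD ZT 20 at the bottom and replicate 2 of HFD ZT 8 at the top, and the ranges of neighbouring time points overlapped throughout. These 3 libraries also had the most extreme balance of long to short transcripts, given with the length index.

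Tsc22d3 had the most even course of the 9. It encodes GILZ, a leucine zipper protein that carries much of the anti-inflammatory action of glucocorticoids (chrX:140539528-140600659). Under NC its libraries read 90.8, 92.7 and 102 at ZT 0, 100.1, 114 and 111 at ZT 4, 109.7, 121 and 123 at ZT 8, 171, 182 and 168 at ZT 12, 136, 150.3 and 150.5 at ZT 16, and 143, 144 and 157 at ZT 20. Under HFD they read 103, 92.7 and 104 at ZT 0, 107, 109.8 and 104 at ZT 4, 136, 148 and 116 at ZT 8, 168, 181 and 209 at ZT 12, 148, 150.4 and 115 at ZT 16, and 142, 133 and 158 at ZT 20. In each diet the 3 libraries at ZT 12 were above all 15 others. The mean rose from 118 ± 7.03 at ZT 8 to 173 ± 7.56 at ZT 12 under NC, a ratio of 1.47, and stayed at 148 ± 7.53 at ZT 20. In the order of time points over both diets (ZT 12, 20, 16, 8, 4 and 0), 4 of 5 neighbouring steps exceeded the larger SD, the exception being ZT 20 against ZT 16.

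Sgk1 had the widest swing. It encodes a serine/threonine kinase that acts on ion channels, transporters and FOXO factors (chr10:21882184-21999903). Under NC its libraries read 13.3, 22.9 and 22.5 at ZT 0, 18.6, 17.8 and 19.4 at ZT 4, 22.3, 42.9 and 26.8 at ZT 8, 48.9, 79.7 and 108 at ZT 12, 26.2, 47.0 and 38.4 at ZT 16, and 23.1, 32.2 and 70.1 at ZT 20. Under HFD they read 19.6, 22.3 and 22.0 at ZT 0, 19.5, 23.4 and 29.4 at ZT 4, 31.7, 40.9 and 19.6 at ZT 8, 61.4, 76.5 and 125 at ZT 12, 39.6, 42.7 and 39.5 at ZT 16, and 39.1, 22.4 and 31.6 at ZT 20. Under HFD the 3 libraries at ZT 12 were above all 15 others, and under NC 1 library at ZT 20 reached into their range. The mean at ZT 12 was 4.24 times that at ZT 4 under NC and 4.12 times that at ZT 0 under HFD. The spread at ZT 12 was also the widest, with SDs of 29.5 and 33.3. In the order of means over both diets (ZT 12, 16, 20, 8, 4 and 0), only the step from ZT 12 to ZT 16 exceeded the larger SD. By the clock, the mean of 6 libraries rose from 30.7 ± 9.63 (SD) at ZT 8 to 83.3 ± 28.6 at ZT 12.

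Fkbp5 encodes a cochaperone of HSP90 that lowers the affinity of the glucocorticoid receptor for its ligand and is itself induced by it, a short feedback loop (chr17:28399094-28517527). Its NC libraries read 20.4, 23.0 and 19.4 at ZT 0, 20.6, 17.6 and 19.1 at ZT 4, 17.7, 18.6 and 18.3 at ZT 8, 21.4, 26.2 and 31.6 at ZT 12, 22.5, 26.3 and 25.5 at ZT 16, and 20.9, 24.95 and 24.5 at ZT 20. Its HFD libraries read 20.9, 21.7 and 21.4 at ZT 0, 19.1, 20.0 and 21.7 at ZT 4, 20.4, 24.9 and 20.2 at ZT 8, 22.4, 26.4 and 26.9 at ZT 12, 23.5, 23.2 and 31.5 at ZT 16, and 20.0, 23.7 and 18.1 at ZT 20. Under HFD the ZT 12 libraries were above those of ZT 0 and 4, while under NC they overlapped with ZT 0. The 2 highest readings, 31.6 and 31.5, came from the 2 libraries rich in striatal transcripts, and without those libraries the fitted fold over both diets was 1.23 rather than 1.30.

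Klf15 and Klf9 encode Krüppel-like zinc finger transcription factors that respond quickly to glucocorticoids in many tissues. Klf15 (chr6:90462576-90475238) read 25.6, 27.0 and 24.3 at ZT 0, 23.1, 21.8 and 22.2 at ZT 4, 25.8, 26.6 and 29.1 at ZT 8, 31.4, 33.2 and 32.4 at ZT 12, 28.0, 28.2 and 32.1 at ZT 16, and 27.9, 29.1 and 31.0 at ZT 20 under NC. Under HFD it read 22.6, 24.3 and 23.8 at ZT 0, 21.6, 21.1 and 24.04 at ZT 4, 30.1, 30.7 and 27.8 at ZT 8, 31.0, 31.9 and 36.2 at ZT 12, 32.7, 34.3 and 29.0 at ZT 16, and 28.8, 27.7 and 29.3 at ZT 20. Klf15 was low at ZT 0 and 4 in both diets, and at ZT 8 under HFD all 3 libraries were already above every library of ZT 0 and 4. Its swing was modest, 1.45 and 1.48 times between the highest and lowest group means, but the libraries of a group lay close together, with SDs of 0.643 to 2.80.

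Klf9 (chr19:23141226-23168134) read 34.0, 35.3 and 37.6 at ZT 0, 38.9, 24.2 and 32.0 at ZT 4, 39.8, 54.5 and 52.8 at ZT 8, 41.9, 55.7 and 82.3 at ZT 12, 46.7, 45.7 and 43.7 at ZT 16, and 46.3, 47.6 and 55.9 at ZT 20 under NC. Under HFD it read 31.5, 31.6 and 35.6 at ZT 0, 37.4, 34.4 and 42.2 at ZT 4, 48.0, 72.2 and 44.2 at ZT 8, 44.7, 44.9 and 64.3 at ZT 12, 45.3, 52.6 and 80.3 at ZT 16, and 39.9, 42.7 and 26.5 at ZT 20. The group at the top was ZT 12 under NC and ZT 16 under HFD, each time with 1 library far above the other 2, and those were the 2 libraries rich in striatal transcripts. Without them the fitted fold over both diets was 1.52 rather than 1.65. No neighbours in the order of means over both diets (ZT 12, 16, 8, 20, 4 and 0) differed by more than the larger SD, an order that keeps neighbouring means close.

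Zbtb16 encodes PLZF, a zinc finger repressor that is strongly induced by glucocorticoids in many cell types (chr9:48654297-48836222). It had the lowest level of the 9. Under NC it read 2.86, 3.50 and 4.49 at ZT 0, 6.49, 2.64 and 3.53 at ZT 4, 4.26, 3.42 and 5.63 at ZT 8, 7.26, 10.5 and 8.68 at ZT 12, 4.33, 7.09 and 4.76 at ZT 16, and 9.50, 9.60 and 7.62 at ZT 20. Under HFD it read 3.94, 3.20 and 4.69 at ZT 0, 4.99, 4.32 and 3.29 at ZT 4, 5.06, 12.98 and 6.34 at ZT 8, 6.09, 8.90 and 14.1 at ZT 12, 4.38, 6.27 and 8.24 at ZT 16, and 5.29, 8.17 and 4.46 at ZT 20. Under NC there were 2 high groups, ZT 12 and ZT 20, with ZT 16 below both, and under HFD the highest mean was at ZT 12. Libraries at ZT 12 were above all of ZT 0 and 4 in both diets.

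Errfi1 encodes MIG6, a feedback inhibitor of the EGF receptor (chr4:150853919-150868892). It averaged 22.0 ± 3.31 and ran from 17.6 to 27.5 under NC and from 17.8 to 29.6 under HFD. Its highest group mean was 25.4 ± 2.57 at ZT 16 under NC and 24.96 ± 4.19 at ZT 0 under HFD, and its lowest 18.9 ± 1.76 at ZT 4 and 19.6 ± 1.32 at ZT 16. Errfi1 thus had its highest mean under NC at the hour of its lowest mean under HFD. In the order of means over both diets (ZT 0, 12, 16, 4, 8 and 20), no neighbours differed by more than the larger SD. By the clock, means of 6 libraries went from 20.7 ± 3.12 (SD) at ZT 8 to 23.9 ± 2.55 at ZT 12. They went from 20.4 ± 1.88 at ZT 20 to 24.1 ± 3.67 at ZT 0. Of the 3 libraries rich in liver transcripts, HFD ZT 0 replicate 3 held the highest Errfi1 reading (29.6) and NC ZT 0 replicate 1 a reading of 27.1, and without the 3 the fitted fold over both diets was 1.11 rather than 1.05.

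The share of all rows with such courses is given for scale, and nothing is read from it because the genes were proposed with these courses known. Libraries at ZT 12 stood above all 6 of ZT 0 and 4 in 301 of 15173 rows under NC (1.98%), among them 5 of the 9 genes, and in 96 rows under HFD (0.633%), among them the same 5 and Fkbp5. The 5 were Tsc22d3, Sgk1, Klf9, Klf15 and Zbtb16, which also stand among the 27 rows (0.178%) where this held in both diets. The share of rows with ZT 12 above all 15 other libraries of a diet, as for Tsc22d3 and, under HFD, Sgk1, was not counted. The 24 h cosine passed an adjusted p under 0.05 in limma in 128 of 15150 rows under NC (0.845%), among them Tsc22d3 and Klf15. It passed in 11 of 15106 rows under HFD (0.0728%), among them Klf15, and in 331 of 15173 rows over both diets (2.18%), among them Tsc22d3, Sgk1, Fkbp5, Klf9, Klf15 and Zbtb16. Without any 1 of 14 libraries Zbtb16 no longer passed over both diets, namely NC ZT 0 replicates 1 and 2, ZT 4 replicates 2 and 3 and ZT 12 replicates 1, 2 and 3, and HFD ZT 0 replicates 1 and 2, ZT 4 replicates 2 and 3, ZT 12 replicates 2 and 3 and ZT 16 replicate 3. Klf15 no longer passed under NC without ZT 4 replicate 2 or 3 or ZT 16 replicate 3.

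The fitted peaks over both diets lay at ZT 12.89 ± 0.719 h for Klf9 (SE), 13.43 ± 0.54 h for Sgk1, 13.83 ± 0.903 h for Zbtb16, 13.93 ± 0.436 h for Tsc22d3, 14.29 ± 0.398 h for Klf15 and 15.18 ± 0.788 h for Fkbp5. All 6 peaks lie closer together than the 4 h between time points. Of the 331 rows that passed over both diets, 48 (14.5%) peaked within ZT 12 to 16, the bin that held all 6 of these genes, and 91 peaked within ZT 4 to 8.

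**Figure D2:**
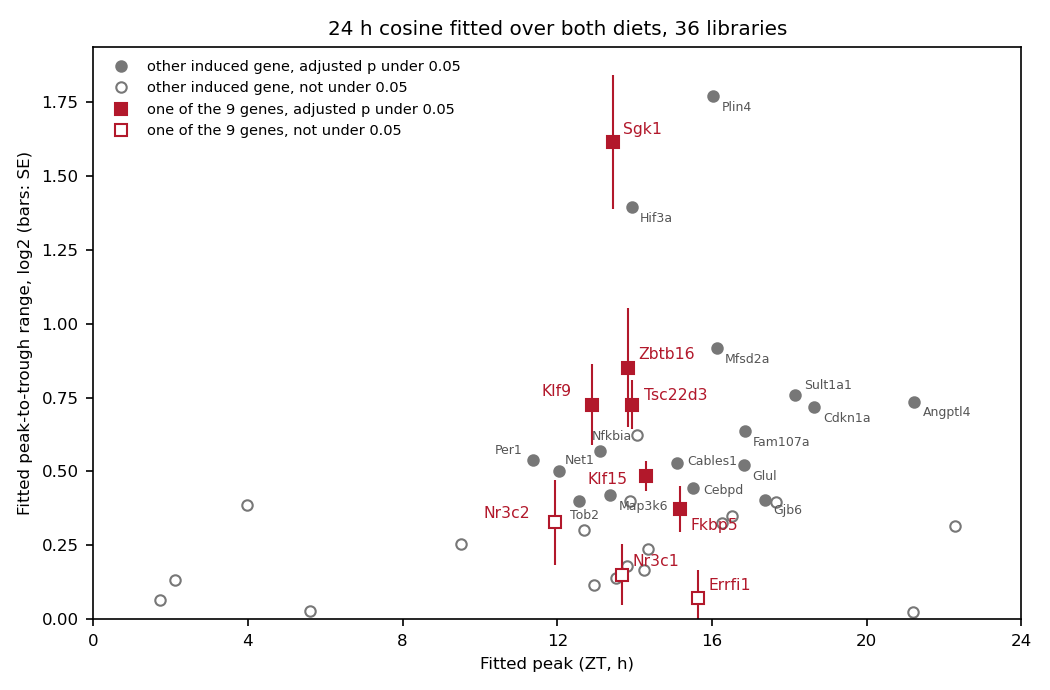
Fitted peak time (x axis, ZT in hours) against fitted peak-to-trough range (y axis, log2, bars SE) over both diets for the 9 genes (red squares) and 34 other glucocorticoid-induced genes (grey circles), filled where the 24 h cosine passed an adjusted p under 0.05. The 6 filled squares lie within ZT 12 to 16, with Sgk1 the highest of them at a log2 range of 1.62.

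Genes of the same kind were followed in a list of 35 others known to be induced by glucocorticoids in at least some tissue, of which 34 were tested. This list too was chosen with earlier results of these data known, so its counts and ranges are a description. The cosine over both diets passed in 16 of the 34, against 2.18% of all rows. Of the 16, 7 peaked within ZT 12 to 16, 7 within ZT 16 to 20, 1 earlier and 1 later. The median fitted log2 range of the 34 was 0.400, against 0.137 over all rows. Those within ZT 12 to 16 were Hif3a (2.63-fold), Nfkbia (1.48-fold, the inhibitor of NF-kappaB), Cables1, Net1, Cebpd, Map3k6 and Tob2. The later ones were Plin4, a lipid droplet coat protein with a 3.41-fold range and a peak at ZT 16.04, the lipid transporter gene Mfsd2a (1.89-fold), Sult1a1, Cdkn1a, Fam107a, Glul and Gjb6, and then Angptl4 (1.67-fold, ZT 21.23). Per1, a clock gene that is also a direct target of the glucocorticoid receptor, peaked earlier, at ZT 11.36, with a 1.45-fold range. Bcl6 passed under NC alone (1.52-fold), a difference between diets that did not pass (adjusted p = 0.357 in limma, Benjamini-Hochberg). The ranges of Dusp1 and Rhob were the smallest of the list, at 1.02-fold each.

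Under NC alone 7 of 33 tested genes of the same list passed (Bcl6, Cables1, Fam107a, Mfsd2a, Net1, Nfkbia and Plin4), against 0.845% of all rows. Under HFD alone 2 of 34 passed (Hif3a and Mfsd2a), against 0.0728% of all rows. Of 18 genes that handle the receptor or its ligand (chaperones, coregulators, steroid enzymes and a transporter), 17 were tested. Stip1, a cochaperone (1.36-fold, peak ZT 20.99), and Abcb1a, a pump at the blood-brain barrier that exports steroids (1.62-fold, peak ZT 15.81), passed under NC, and 0 passed under HFD or over both diets. An unadjusted p under 0.05 in limma was seen for 10 of the 17 under NC (18.2% of all rows). It was seen for 1 under HFD (8.64% of all rows) and for 5 over both diets (13.1% of all rows). The widest ranges over both diets were those of Nrip1 (1.31-fold), Abcb1a (1.31-fold) and Crebbp (1.28-fold). Of 8 genes of the hypothalamic-pituitary-adrenal axis 5 were tested and 0 passed in any comparison in limma. Pomc, the ACTH precursor gene, had a fitted range of 2.74-fold over both diets (adjusted p = 0.524), with Crhr2 at 1.20-fold and Crh, the corticotropin-releasing hormone gene, at 1.11-fold.

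Over the 12 group means, which share 6 times of day, the 6 genes resembled each other to differing degrees. Their Pearson r ran from 0.658 (Klf9 with Fkbp5) to 0.934. Klf9 correlated at 0.843 with Klf15 and 0.704 with Tsc22d3, and at 0.812 with the receptor gene Nr3c2. Tsc22d3 correlated with Sgk1 at a Pearson r of 0.934 and with Zbtb16 at 0.910, and Sgk1 with Klf15 at 0.852, as a description over 12 points. Among 11544 candidate genes the closest to Tsc22d3 were Plekhf1 (0.938), Sgk1 and Zbtb16, and the closest to Sgk1 were Nfkbia (0.957), Plekhf1 (0.940) and Tsc22d3. Those closest to Klf15 were Sdc4 (0.949), Cables1 (0.948) and Rin2 (0.947), and those closest to Zbtb16 were Tsc22d3, Trib1 (0.901) and Rin2 (0.900). Fkbp5 was closest to Kcna5 (0.963), Adipor2 (0.925) and Foxo1 (0.919), and Klf9 to Pik3c2a (0.943), Cux2 (0.936) and Fnip1 (0.919). The receptors had other neighbours, Pitpnc1 (0.959), Ids and Lrrtm2 for Nr3c1, and Tbcel (0.957), Pdpr and Atf6 for Nr3c2. Errfi1 stood away from the other 8, at 0.0248 with Klf9 to 0.433 with Fkbp5, and genes close to it included Steap3 (0.852) and Ifitm1 (0.829).

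Cell type markers were read over the same hours. Over both diets the cosine passed for 2 of 12 endothelial and mural markers (Cldn5 and Kcnj8), 2 of 10 oligodendrocyte markers (Cnp and Opalin), 1 of 10 astrocyte markers (Gjb6) and 1 of 11 SCN markers (Rgs16), and for 0 of the tested markers of microglia, meninges, choroid plexus, blood, neurons, liver and striatum. Under NC alone it passed for Opalin (2.09-fold, peak ZT 5.63) and for the meningeal marker Lum (2.47-fold, peak ZT 12.28), and under HFD alone for 0 markers. The summed level of 10 meningeal markers under NC was 209 to 309 at ZT 12, above every library of ZT 0 (80.0 to 145) and ZT 4 (67.8 to 104), the hours at which the induced genes were low. Under HFD it was 80.2 to 180 at ZT 12, against 194 to 553 at ZT 0 and 79.9 to 394 at ZT 4. The summed endothelial and mural level was 268 to 342 at ZT 12 and 246 to 336 at ZT 0 under NC, and 214 to 339 and 275 to 513 under HFD, with 0 of the 12 endothelial and 0 of the 10 meningeal markers at 0 throughout. The summed astrocyte level under NC was 3082 to 3484 at ZT 12, 2399 to 2820 at ZT 4 and 2921 to 3454 at ZT 0. Under HFD it was 3032 to 3552, 2431 to 3011 and 2790 to 3890 in that order. It was thus higher at ZT 12 than at ZT 4 in both diets, with overlap at ZT 0. The summed neuronal level at ZT 12 and ZT 4 was 4045 to 5131 and 4551 to 4918 under NC, and 4455 to 4700 and 5002 to 5298 under HFD. The part of cell makeup in the courses of the 9 genes was not tested.

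The diets did not separate the 9 genes. Over all time points, 0 of the 9 differed between HFD and NC at an adjusted p under 0.05 in limma, and 0 had an unadjusted p under 0.05, while 2 of all 15173 rows passed (0.0132%) and 389 had an unadjusted p under 0.05. For Tsc22d3 the HFD libraries averaged 135 and the NC libraries 131, a log2 difference of 0.03 (95% interval -0.05 to 0.11, higher at 3 of 6 time points). For Klf15 the difference was 0.02 (-0.05 to 0.08), and these 2 genes had the narrowest intervals. For Sgk1 it was 0.08 (-0.19 to 0.36) and for Zbtb16 0.09 (-0.17 to 0.35), so that their intervals reach further from 0 than those of the other induced genes.

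For Fkbp5 the difference was 0.03 (-0.08 to 0.14), for Nr3c2 0.06 (-0.15 to 0.27) and for Nr3c1 -0.06 (-0.20 to 0.08). Errfi1 at -0.01 (-0.14 to 0.12) and Klf9 at -0.0035 (-0.20 to 0.20) had no stable sign across processing alternatives. Each of the 9 had an adjusted p = 1 in limma (Benjamini-Hochberg), and their median difference was 0.03 against -0.00051 over all rows. In the list of 35 induced genes 0 of 34 tested passed for diet, 5 had an unadjusted p under 0.05 and 27 were higher under HFD, with a median of 0.05. All 12 endothelial and mural markers were higher under HFD, 4 with an unadjusted p under 0.05. Also higher under HFD were 6 of 6 blood rows (4 with an unadjusted p under 0.05), 10 of 10 microglial, 10 of 10 meningeal and 9 of 10 astrocyte markers, but 1 of 10 neuronal and 1 of 10 oligodendrocyte markers, and 0 of these passed. The summed endothelial and mural level was 214 to 513 under HFD and 238 to 343 under NC, the blood level 1369 to 6714 and 1240 to 7782, and the meningeal level 53.8 to 553 and 52.1 to 309. The part of cell makeup in the diet values was not tested.

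**Figure D3:**
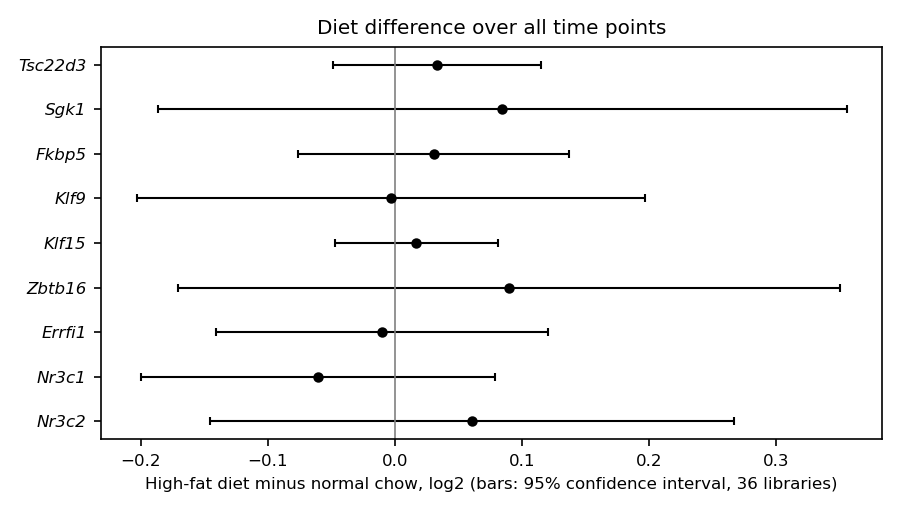
Difference between diets over all time points for each of the 9 genes, high-fat diet minus normal chow (x axis, log2 of rescaled FPKM + 1), with 95% confidence intervals from 36 libraries. All 9 intervals include 0, and those of Tsc22d3 and Klf15 are the narrowest.

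At single time points 0 of the 54 contrasts of the 9 genes passed in limma, against 1 of 91038 contrasts over all rows (0.0011%), which stood at ZT 12 (0.00659%). Of the 54, 31 were positive and 3 had an unadjusted p under 0.05, a share close to the 6.2% of all contrasts, so these 3 are given as values only. Zbtb16 at ZT 8 read 0.67 ± 0.30 (HFD minus NC, SE, adjusted p = 0.286 in limma), from readings of 5.06, 12.98 and 6.34 against 4.26, 3.42 and 5.63. The groups overlapped, and without HFD ZT 8 replicate 2 the difference was 0.32. It was 0.43 on the deposited values without rescaling, and the median of all rows at ZT 8 was itself 0.12 in the same direction.

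Klf9 at ZT 20 read -0.47 ± 0.23 (SE, adjusted p = 0.772 in limma), from 39.9, 42.7 and 26.5 against 46.3, 47.6 and 55.9. Without HFD ZT 20 replicate 3 the difference was -0.26. Errfi1 at ZT 16 read -0.35 ± 0.15 (SE, adjusted p = 0.374 in limma), from 18.5, 21.1 and 19.3 against 22.5, 26.0 and 27.5. None of the 3 held up against the number of contrasts tested.

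The daily course itself was then compared between diets. The difference in rhythm passed in 0 of 15173 rows in limma (0%), with 2004 rows at an unadjusted p under 0.05, of which 0 were among the 9 genes. Adjusted p-values of the 9 (limma, Benjamini-Hochberg) ran from 0.384 for Errfi1 to 0.927 for Sgk1. In simulated data with a rhythm under HFD alone, this test recovered 15.7% of such rows at a log2 range of 0.5. At a log2 range of 1 it recovered 68.7%, so smaller differences could be missed. The fitted fold was 1.68 under NC and 1.65 under HFD for Tsc22d3, 3.14 and 3.01 for Sgk1, 1.33 and 1.48 for Klf15, 1.37 and 1.25 for Fkbp5, 1.62 and 1.73 for Klf9, and 1.85 and 1.96 for Zbtb16. Fitted peaks under HFD came earlier than under NC for these 6 in the fit reported, at ZT 13.47 ± 0.685 h against 14.37 ± 0.524 h for Tsc22d3 (SE), 13.11 ± 0.684 h against 13.74 ± 0.805 h for Sgk1, and 13.89 ± 0.502 h against 14.83 ± 0.656 h for Klf15. The gaps were wider for Klf9 (12.06 against 13.85), Fkbp5 (13.76 against 16.18) and Zbtb16 (12.32 against 15.48), where SEs reached 1.26 h. For Tsc22d3 the gap nearly closed on the deposited values without rescaling (13.83 under HFD against 13.91) and with size factors (14.01 against 14.07). For Sgk1 it nearly closed with the length index, described below, as a covariate (12.93 against 12.96). The order turned for Klf15 on the deposited values without rescaling (14.43 under HFD against 14.04) and with size factors (14.55 against 14.32). It turned for Klf9 without the 3 libraries of extreme length index (13.49 against 13.34) and with the index as a covariate (12.86 against 11.54). The tests of these differences did not pass, and the genes were measured in the same libraries, so their common sign is not 6 separate observations.

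Several of the 9 genes were high or low together in single libraries whatever the hour, and those with the longest transcripts most of all. For each library a length index was taken, the median log2 deviation of 2036 rows with a longest transcript of at least 6000 nt minus that of 3388 rows of at most 2000 nt. It was chosen after seeing the data. It was -0.63 in HFD ZT 20 replicate 3, -0.59 in NC ZT 4 replicate 2 and 0.70 in HFD ZT 8 replicate 2, and between -0.35 and 0.27 in the other 33. These are the libraries with the lowest, the next lowest and the highest Nr3c2 and Nr3c1 readings. The longest transcripts of Nr3c1 and Nr3c2 are 6436 and 5916 nt, those of Zbtb16, Klf9 and Fkbp5 5114, 4486 and 3858 nt, and those of Sgk1, Errfi1, Tsc22d3 and Klf15 3096, 3043, 2876 and 2482 nt.

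**Figure D4:**
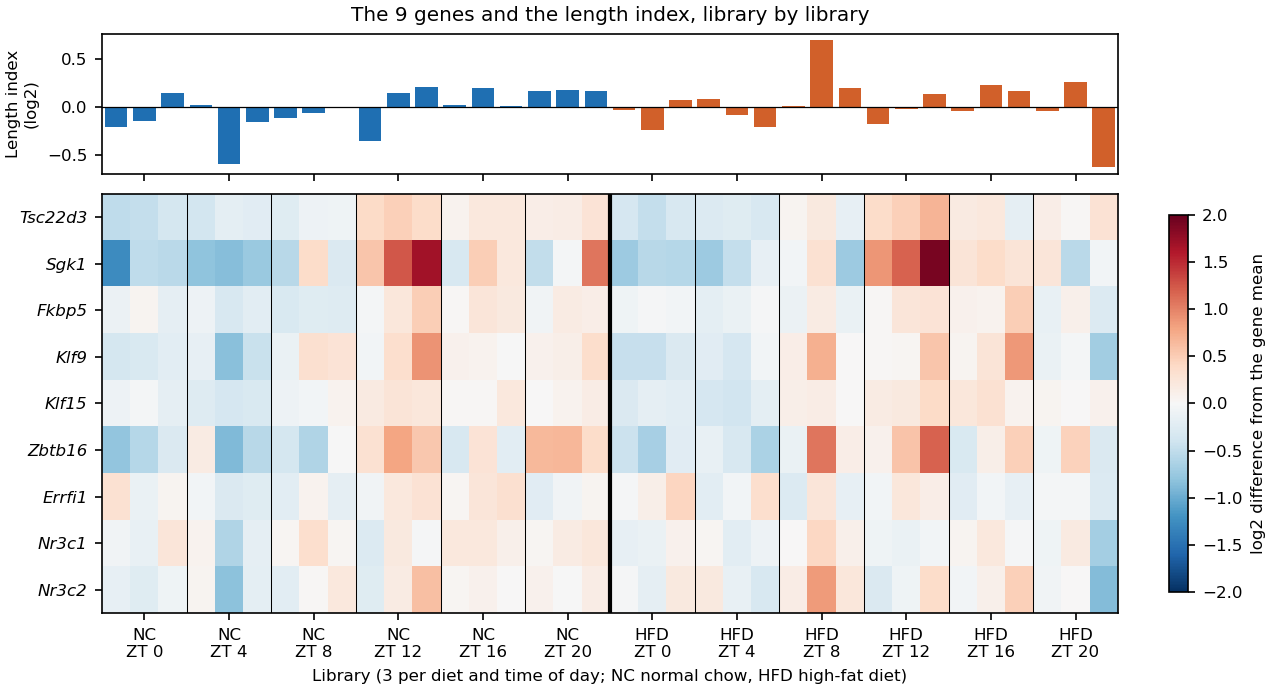
Top, length index of each library (y axis, log2; bars blue for normal chow, orange for high-fat diet); bottom, log2 difference of each of the 9 genes from its mean over 36 libraries (colour), libraries in order of diet and time of day along the x axis. Tsc22d3 and Sgk1 stand out at ZT 12, whereas Nr3c1 and Nr3c2 are lowest in the 2 libraries with the lowest index and highest in the 1 with the highest.

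Over 36 libraries Nr3c2 correlated with the index at a Pearson r of 0.897 and a Spearman rho of 0.821, and Nr3c1 at 0.845 and 0.737. Klf9 had r = 0.715 and rho = 0.659, Zbtb16 r = 0.673 and rho = 0.724, and Fkbp5 r = 0.532 and rho = 0.540. The index was prompted by these same libraries, so the 9 relations computed are a description with no p-value. Without the 3 libraries of extreme index r was 0.743 for Nr3c2, 0.666 for Nr3c1, 0.535 for Klf9, 0.621 for Zbtb16 and 0.438 for Fkbp5. Within the 12 groups r was 0.897, 0.855, 0.753, 0.818 and 0.595 in the same order.

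For the shorter genes r was lower. Klf15 had r = 0.322 and rho = 0.318, Errfi1 r = 0.320 and rho = 0.231, Sgk1 r = 0.266 and rho = 0.278, and Tsc22d3 r = 0.213 and rho = 0.275. Without the 3 libraries r was 0.295, 0.023, 0.239 and 0.311 in that order, and within the 12 groups 0.0333, 0.478, 0.266 and 0.0443.

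With the index as a covariate the fitted fold over both diets was 1.01 for Nr3c1 and 1.13 for Nr3c2, against 1.11 and 1.26 without it. It was 1.48 for Klf9, 1.55 for Zbtb16 and 1.25 for Fkbp5. The difference of Zbtb16 at ZT 8 was then 0.20 and that of Klf9 at ZT 20 was -0.19, against 0.67 and -0.47, with adjusted p = 0.919 and 1 in limma. Klf15 no longer passed under NC, with a log2 range of 0.38 rather than 0.42.

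**Figure D5:**
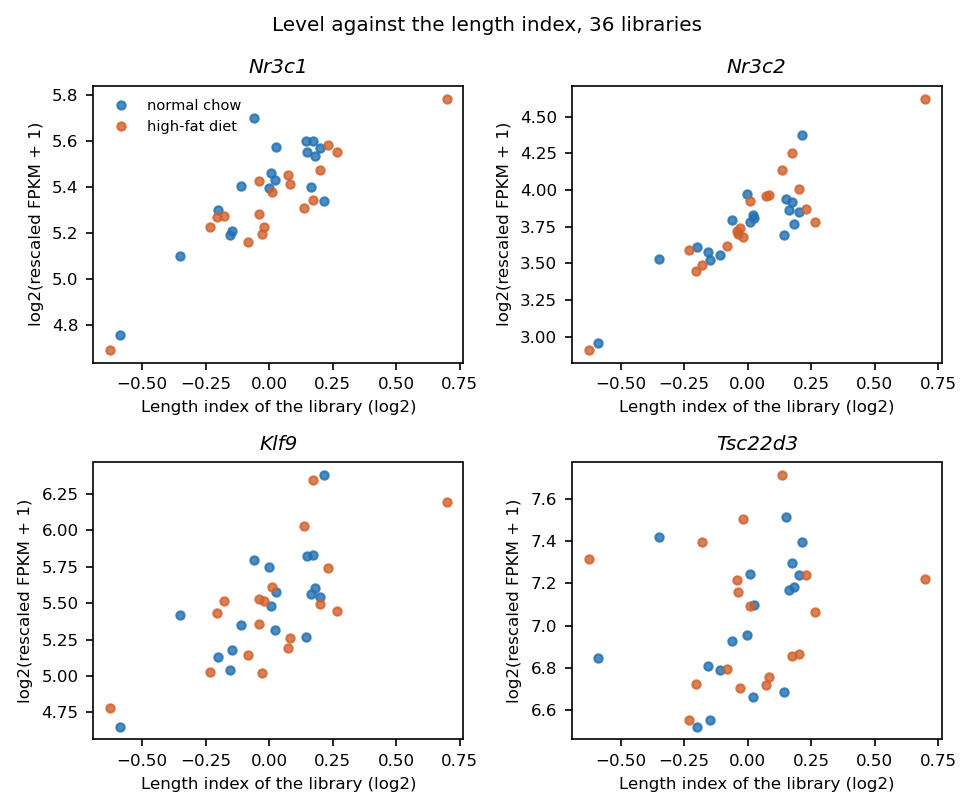
Level, as log2(rescaled FPKM + 1) (y axes), against the length index of the library (x axes, log2) for Nr3c1, Nr3c2, Klf9 and Tsc22d3, with 1 point per library, blue for normal chow and orange for high-fat diet. Nr3c1 and Nr3c2 climb with the index over its whole range (Pearson r 0.845 and 0.897), and Tsc22d3 scatters (0.213).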

How the data were processed

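RNA-seq covered 36 libraries, 3 for each of 2 diets at 6 times of day. Per the labels' protocols, tissue was snap frozen, RNA came from the RNeasy Micro Kit and libraries from the TruSeq stranded mRNA protocol. Trimmomatic, TopHat and Cufflinks are named, with builds mm10 and GRCm38, per the submitters' processing notes. The values the authors deposited are taken as FPKM. No header states this unit, which was inferred from the range of values and the use of Cufflinks. Versions, annotation and any further scaling are not given in the sources used here, and read depth is unknown, so no counting interval is given.

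Each library was brought to a total of 1000000 across the 24883 shared rows, and log2(value + 1) was used throughout. Rows with a mean of at least 1 were tested in limma 3.58.1 (R 4.3.3) with a mean-variance trend, and p-values were adjusted by Benjamini-Hochberg over all rows tested, with calls at an adjusted p under 0.05. Time of day was fitted as a 24 h cosine and sine, the difference in rhythm as their terms with diet, diet with time point as a factor, and diet at each time point as contrasts of 12 group means. Tests of diet are two-sided. The 9 genes, the 3 pathway lists and the 11 marker lists were chosen with earlier results of these data known. All 9 genes are named. From the pathway and marker lists, genes past the threshold in any test are named, with the widest (4 or 3 a list) and, of the induced genes, the 2 smallest fitted ranges, and for each of the 9 genes the 3 rows most like it (mean of at least 5), of which 1 is not reported here. Correlations were computed in Python 3.11.15 (scipy 1.17.1, numpy 2.4.6, pandas 2.3.3), and plots matplotlib 3.10.9.

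The replicate numbers were not taken as pairs, since not every same-numbered pair of diets correlated over 0.1. The scripts were tested on simulated data. Alternatives were the scaling, the pseudocount, the filter, a replicate block, time as a factor, and leaving out libraries singly or by marker. Those with the length index, from GENCODE M21 transcripts on GRCm38 (gene positions likewise), were chosen after seeing the data.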

Additional observations from a re-analysis of the deposited data

How the results depend on the processing

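Of 59 counts of the 9 genes past the threshold under other settings, 54 were within 1.5 times the reported count or were 0 in both. Counts for diet, diet at each time point and the difference in rhythm were 0 in every setting. The 5 counts that moved were thus all for time of day, and a count of 3 against 2 was not taken as moved. Under HFD the count for time of day was 0 on the deposited FPKM without rescaling, 2 without the striatum-rich libraries and 0 with time as a factor, against 1. Under NC it was 1 without the 3 libraries of extreme length index and 1 with the index as a covariate, against 2. Leaving out single libraries gave 1 to 3 under NC, 1 to 2 under HFD and 5 to 6 over both diets, and 0 for diet, diet at each time point and the difference in rhythm. Zbtb16 over both diets was also lost with no filter on low values and without the liver-rich or the striatum-rich libraries. The replicate block gave 3, 1 and 6 for NC, HFD and both diets and 0 for the tests of diet. Same-numbered NC and HFD libraries correlated at -0.276 to 0.319 over 18 pairs, 9 of them over 0.1 (median 0.103, against 0.0254 over all 198 same-numbered pairs), and 12 of 18 correlated best with their own number, a hint from the data and not from the design.

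Signs turned for small values. The diet difference of Klf9 was 0.0052 without the liver-rich libraries and -0.048 to 0.041 with single libraries left out, and that of Errfi1 was 0.015 without the striatum-rich ones and -0.039 to 0.0098. The fitted phase turned over for Errfi1 over both diets with time as a factor (range 0.22), for Nr3c1 under HFD without the 3 libraries of extreme length index (0.12), for Nr3c1 with the index as a covariate (0.055 under NC, 0.016 under HFD), for Rhob (0.027) and Crh (0.036) without those 3, and for Dusp1 (0.013 to 0.080) and Rhob (0.013 to 0.074) with single libraries left out. The causes were not tested.

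Over all rows, time of day under NC passed in 254 with size factors, 204 without the liver-rich libraries, 50 with time as a factor, 72 without the 3 libraries, 71 with the index and 48 to 162 with single libraries left out, against 128. Under HFD it passed in 5 with no filter, 7 with the replicate block, 2 with time as a factor and 4 to 13 with single libraries left out, against 11, and over both diets in 618 without the 3 libraries and 672 with the index, against 331. Diet at each time point passed in 0 to 2 under other settings and in 0 to 1100 with single libraries left out (1100 without HFD ZT 8 replicate 1), against 1. FPKM without counts limits what can be said of low genes such as Zbtb16.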
